A study of Homo sapiens with 6 samples.

Results

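Motor proteins walk along the cytoskeleton, and many of the genes that encode them also give circular RNAs (circRNAs), rings of RNA made when the splice donor of a later exon is spliced back to the acceptor of an earlier one. The circRNAs described here come from hosts named for the kinesin, dynein and myosin families. They were chosen by the name of a single host gene: a name that begins with KIF, DNAH, MYO or MYH and a digit or with DYNC, or 1 of 10 named cofactor genes (DCTN1, DCTN4, KLC1, KTN1, TRAK1, TRAK2, BICD1, BICD2, PAFAH1B1 and NDE1). The rule found 131 of the 9857 listed circRNAs, from 39 of 3742 single host genes, and used no measured level. Of these, 66 came from 18 kinesins, 18 from 5 cytoplasmic dynein genes and 3 from the axonemal dynein DNAH14. A further 23 came from 7 unconventional myosins, 7 from 2 myosin heavy chains and 14 from 6 adaptors and cofactors. The other 3 circRNAs that involve a motor gene are assigned to KLC1 together with AL139300.1 and fall outside the rule.

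Kinesins carry cargo along microtubules, mostly towards their plus ends, or remodel the spindle, and several are made mainly in dividing cells. Cytoplasmic dynein moves towards minus ends with the help of dynactin, LIS1 and cargo adaptors. Myosins pull on actin filaments in contraction, cell migration and the division of the cell body. A circRNA of a motor gene holds part of the exons or introns of that gene, and its level is not a measure of the motor protein.

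The cells were BEAS-2B, a line of immortalised epithelial cells from human bronchus. Cadmium cells (3 libraries, labelled T-BEAS-2B) were kept in 2.0 µM cadmium for 20 weeks, and control cells (3 libraries, labelled C-BEAS-2B) at 0.0 µM for the same time. Both sets of RNA were cleared of ribosomal RNA and treated with RNase R, which degrades linear RNA, and went into stranded libraries. The study asks how circRNA levels stand after the exposure. The deposited column names abbreviate the agent as CdCl. The labels leave it unsaid whether replicates are separate cultures, so the spread behind each p-value may be purely technical. Every value counts reads across a back-splice junction, 1 junction per circRNA, so no length enters it. Totals were 133185, 135686 and 160248 junction reads in cadmium replicates 1 to 3, and 225769, 137919 and 165352 in control replicates 1 to 3. Of 12 epithelial marker genes, 0 are listed as hosts of a circRNA, and of 3 immune markers, 0. Of 10 mesenchymal markers, ZEB1, ZEB2 and BNC2 are listed, with 47 to 71 reads in all in a cadmium library and 77 to 125 in a control library. Of 7 motile cilia genes, CCDC40 and HYDIN are listed, with 15 to 27 reads in cadmium libraries and 11 to 27 in control libraries. A gene without a listed circRNA may still be expressed, so these lists can check the cell type only in part. A lower circRNA level from fewer expressing cells and one from less RNA per cell cannot be told apart in these bulk samples.

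The junctions below were chosen because the results turn on these circRNAs, or because a pair of them shows how circRNAs of 1 host share an exon end. Each gives the last 25 bases of the donor exon in lower case and the first 25 bases of the acceptor exon in capitals, 5′ to 3′ on the strand of the gene, from GENCODE 29 transcripts on GRCh38. They are reference sequences, not sequences read from the libraries. The 3 pairs of KIF4A, KIF23 and DYNC1H1 have the same acceptor exon, and the DYNC2H1 pair has the same donor exon. The capitals of the MYO10 junction code for the P-loop, the ATP-binding stretch of a myosin motor domain.
KIF4A hsa_circ_0004278: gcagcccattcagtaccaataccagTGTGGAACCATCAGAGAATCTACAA
KIF4A novel_circ_0040270: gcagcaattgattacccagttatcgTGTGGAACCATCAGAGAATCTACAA
KIF23 hsa_circ_0004266: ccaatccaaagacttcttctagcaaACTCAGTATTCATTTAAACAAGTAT
KIF23 novel_circ_0009211: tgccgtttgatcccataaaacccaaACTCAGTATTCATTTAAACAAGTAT
DYNC1H1 hsa_circ_0002398: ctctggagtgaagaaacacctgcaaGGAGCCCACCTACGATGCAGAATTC
DYNC1H1 hsa_circ_0007979: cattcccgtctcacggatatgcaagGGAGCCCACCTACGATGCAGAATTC
DYNC2H1 hsa_circ_0006921: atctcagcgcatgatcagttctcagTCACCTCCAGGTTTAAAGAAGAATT
DYNC2H1 hsa_circ_0024143: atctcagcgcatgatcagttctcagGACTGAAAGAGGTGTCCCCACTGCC
KIF2A hsa_circ_0072593: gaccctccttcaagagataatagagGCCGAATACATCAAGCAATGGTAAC
MYO10 novel_circ_0031141: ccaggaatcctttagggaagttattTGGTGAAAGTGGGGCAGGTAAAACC

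The KIF4A pair lies on the plus strand of chromosome X, at chrX:70341799-70353807 (exons 11 to 15 of 31) and chrX:70341799-70343982 (exons 11 to 13). The KIF23 pair lies on the plus strand at chr15:69421647-69422435 (exons 4 to 6 of 23) and chr15:69421647-69423329 (exons 4 to 7). The DYNC1H1 pair lies on the plus strand at chr14:102040236-102040673 (exons 63 and 64 of 78) and chr14:102040236-102042748 (exons 63 to 69). The DYNC2H1 pair lies on the plus strand at chr11:103311878-103323990 (exons 79 to 82 of 89) and chr11:103303093-103323990 (exons 76 to 82). The KIF2A circRNA lies on the plus strand at chr5:62347130-62350120 (exons 3 to 5 of 21) and the MYO10 circRNA on the minus strand at chr5:16779545-16783469 (exons 5 to 9 of 41). All printed bases are coding, and 4 other named junctions that touch untranslated bases (in KTN1, NDE1, MYH9 and PAFAH1B1) are not printed.

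Motor circRNAs were mostly short and made of few inner exons. The class given by the authors is exonic for 129 and intronic for 2. Both ends of 127 exonic circRNAs lay on exon bounds of 1 GENCODE 29 transcript, with a median of 3 exons and a median annotated length of 402 bases (412 bases over all matched circRNAs of the table). The second exon was the first one of 17 motor circRNAs, or 13.4%, against 28.6% of all matched circRNAs, and 112 (88.2%, against 82.2%) held coding exons alone. A coding length divisible by 3, which would keep the reading frame around the circle, was found for 44 of these 112 (39.3%, against 37.8% over all). The median intron before the circRNA was 3682 bases and the median intron after it 3388 bases, against 6507 and 5816.5 bases over all. These are descriptions of annotated exons with no test, and the exons inside a circle were not measured. The length deposited by the authors was shorter than the annotated chain for 33 of 54 matched motor circRNAs named by the authors. It was shorter for 1 of 73 with an hsa_circ identifier. Over all matched circRNAs these counts were 1094 of 2459 and 99 of 6244.

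Many motor circRNAs were alternative joins of the same region. An exact start or end was shared with another member by 82 circRNAs from 20 hosts, and such members are not independent. A single listed circRNA came from 14 hosts, 2 or 3 from 9 hosts, and 4 or more from 16 hosts. KIF11, the motor that pushes spindle poles apart, had the most, with 10, followed by KIF23 with 9 and by DYNC2H1 and MYO9B with 8 each. In KIF11, 3 circRNAs began at exon 15 and ended at exon 17, 18 or 21. The most abundant circRNA of a host took between 17.2% (MYO9B) and 73.1% (MYO5A) of the reads of that host among the 25 hosts with more than 1.

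Motor circRNAs took a like share of junction reads in both groups. They held 943, 999 and 1037 reads in cadmium replicates 1 to 3, and 1628, 990 and 1247 reads in control replicates 1 to 3. As a share of all junction reads this was 0.708% (95% exact binomial interval 0.664 to 0.755%), 0.736% (0.691 to 0.783%) and 0.647% (0.608 to 0.688%) with cadmium. It was 0.721% (0.687 to 0.757%), 0.718% (0.674 to 0.764%) and 0.754% (0.713 to 0.797%) in controls. The ranges of the groups overlapped, with a mean of 0.697% ± 0.0456 for cadmium and 0.731% ± 0.0201 for control (SD, n = 3 each). The intervals cover counting error only, since the reads carry no molecular identifiers and PCR copies count as reads. Kinesins gave 52.1 to 55.3% of motor reads in cadmium libraries and 52.6 to 55.8% in control libraries. Cytoplasmic dyneins gave 19.8%, 20.4% and 18.5% of motor reads with cadmium, and 14.7%, 16.5% and 17.5% in controls, without overlap. Unconventional myosins stood the other way, also without overlap, with 12.3%, 11.5% and 11.96% with cadmium and 13.5%, 13.2% and 13.6% in controls. So did adaptors and cofactors, with 8.70%, 8.61% and 7.91% with cadmium and 9.21%, 8.89% and 9.46% in controls. The remaining families overlapped, as the kinesins did. For the axonemal dynein, control libraries ran from 0.909 to 3.81%, around all 3 cadmium libraries. For the myosin heavy chains, control replicate 3, at 4.57%, lay within the cadmium range, and the other control libraries lay above it. These shares sum to 1 whole, so they do not move independently, and they were not tested. How often sums over other sets of hosts come apart was not counted. Of tested hosts, 3 of 4 cytoplasmic dyneins, 2 of 5 unconventional myosins and 3 of 6 adaptors and cofactors had positive log2 fold changes.

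Fewer motor circRNAs had reads in each cadmium library than in any control library. Of the 131, 112, 112 and 114 were above 0 in cadmium replicates 1 to 3, and 129, 126 and 127 in control replicates 1 to 3. At the depth of the smallest library (133185 reads), 85.5%, 85.3% and 83.5% of motor circRNAs were expected to keep 2 or more reads with cadmium. In controls the same share was 90.3%, 95.0% and 92.4%. Over all listed circRNAs it was 88.9%, 87.5% and 86.5% with cadmium and 87.8%, 90.3% and 88.3% in controls. The difference between motor circRNAs and the rest was not tested, and the list itself bears on it. A circRNA is listed when all 3 libraries of 1 group or the other hold reads of it, and the control libraries hold more reads in total. Listed through the cadmium libraries alone were 10 motor circRNAs (7.63%, against 15.3% of all), and through the control libraries alone 37 (28.2%, against 22.9%). The median was 6 reads per motor circRNA and library, against 7 over all circRNAs, so single circRNAs were counted with low precision.

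**Figure D1:**
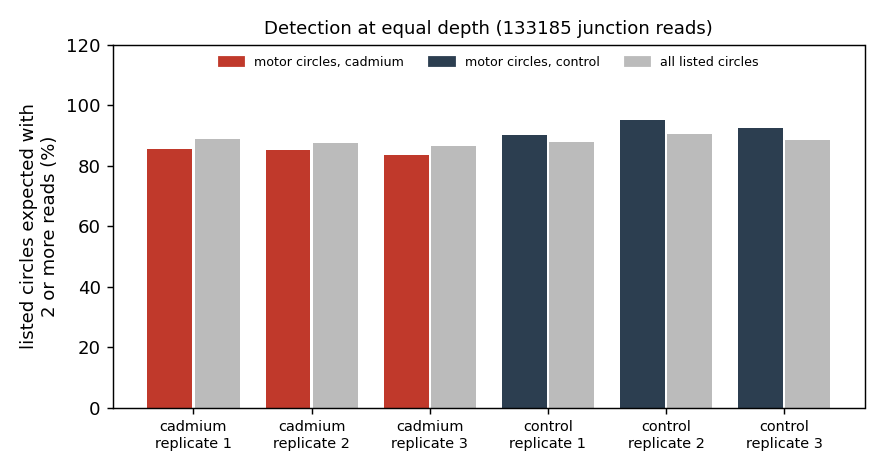
Share of listed circRNAs expected with 2 or more reads in each library once all libraries are brought to 133185 junction reads (vertical axis, %), for the 131 motor circRNAs (coloured bars) and all listed circRNAs (grey bars). Motor circRNAs sit at 83.5 to 85.5% in cadmium libraries and at 90.3 to 95.0% in control libraries, on either side of the grey bars.

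No motor circRNA and no motor host passed an adjusted p of 0.05 when cadmium was set against control. The quasi-likelihood test of edgeR was run on all circRNAs with enough reads and adjusted over all of them, and 76 of the 131 members entered it. It called 0 of the 76, where it called 0.0809% of all 6182 circRNAs, and the smallest adjusted p of a member was 0.436. An unadjusted p under 0.05 was reached by 1 member with a higher level (background 4.32%) and 5 with a lower level (background 3.88%). Groups that did not overlap were seen for 4 members higher with cadmium (background 7.52%) and 10 lower (background 7.78%). Of the 76, 38 had a log2 fold change above 0 and 38 below 0, and the median was -0.003, against 0.01 over all circRNAs. limma called 0 of the 76, with an unadjusted p under 0.05 for 6. DESeq2 gave an adjusted p for 24 of the 76 and called 0 of these, with an unadjusted p under 0.05 for 1 of the 76.

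Summed per host, 33 of the 39 motor genes had enough reads for the test. The host test of edgeR called 0 of them, against 0.233% of 3008 hosts, and the smallest adjusted p was 0.204. An unadjusted p under 0.05 was reached by DYNC1H1 and KTN1 with higher levels (background 5.88%) and by NDE1, MYO10 and KIF4A with lower levels (background 6.58%). Groups that did not overlap were seen for 2 tested hosts higher with cadmium (background 9.28%) and 6 lower (background 10.0%). The log2 fold change was below 0 for 18 and above 0 for 15 of them, with a median of -0.10, against 0.001 over all hosts. limma called 0 of the 33, with an unadjusted p under 0.05 for 5. DESeq2 gave no adjusted p for any of the 33 and so made no call, and its unadjusted p was under 0.05 for 2. The hosts with too few reads were DYNC2LI1, KIF20A, KIF3A, KIF5A, MYO1C and MYO5C.

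**Figure D2:**
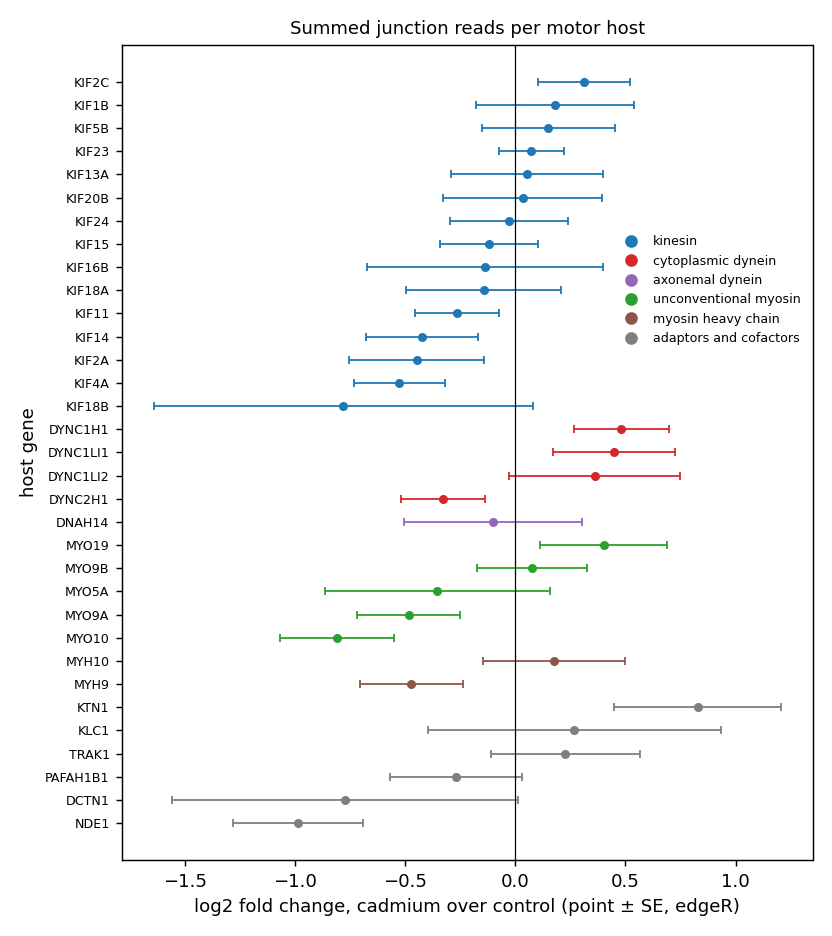
Log2 fold change of summed junction reads, cadmium over control (horizontal axis), for the 33 tested motor hosts, with the point as the edgeR estimate and the bar as ± 1 SE. Colours mark the families. Estimates run from -0.99 (NDE1) to 0.83 (KTN1), and 3 of 4 tested cytoplasmic dynein genes lie above 0.

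Among the kinesins, 15 of 18 hosts were tested, with 6 log2 fold changes above 0 and 9 below. Values of hosts are in CPM, here the share of the reads summed over hosts, with TMM factors. KIF23, a subunit of the centralspindlin complex that organises the midzone in cytokinesis, gave the most motor junction reads. It had 921, 874 and 769.8 CPM with cadmium, against 839, 879 and 715 CPM in controls. The 2 ranges overlapped, and the log2 fold change was 0.07 (SE 0.15, adjusted p = 0.859 with edgeR). KIF15, a spindle motor that can share the work of KIF11, had 335, 512 and 378 CPM with cadmium, against 341, 462 and 539 CPM in controls, also overlapping (log2 fold change -0.12, SE 0.22, adjusted p = 0.847). KIF11 itself had 289, 347 and 385 CPM with cadmium, against 415, 381 and 433 CPM in controls. Only the highest cadmium library reached the lowest control library, and the log2 fold change was -0.26 (SE 0.19, adjusted p = 0.611). KIF2C, which takes tubulin off microtubule ends at centromeres, had 418, 354 and 475 CPM with cadmium, against 364, 256 and 376 CPM in controls (log2 fold change 0.31, SE 0.21, adjusted p = 0.573). KIF24, a depolymerising kinesin of centrioles, had 327, 332 and 282 CPM with cadmium and 341, 176 and 426 CPM in controls. Its control libraries were spread around all 3 cadmium libraries, and the log2 fold change of -0.03 (SE 0.27, adjusted p = 0.974) changed sign under other settings.

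KIF4A, a chromokinesin of the anaphase midzone, had the kinesin sum with the smallest p. It had 342, 384 and 263 CPM with cadmium, against 443, 418 and 558 CPM in controls. Every cadmium library was below every control library, with a log2 fold change of -0.53 (SE 0.21), but the adjusted p was 0.315. This sum includes novel_circ_0040270, listed through the control libraries alone. It gave 19, 4 and 13 of the 96, 57 and 89 KIF4A reads in controls and 0 with cadmium. The separation of the KIF4A sums thus rests in part on the listing, and the sum without that circRNA was not fitted. The 4 listed circRNAs of KIF4A did not all stand the same way. hsa_circ_0004278 (exons 11 to 15), which took 67.8% of KIF4A reads, had 34, 35 and 29 reads with cadmium and 57, 43 and 59 in controls. Scaled to library size this was 251, 253 and 185 CPM against 256, 312 and 355 CPM, without overlap (log2 fold change -0.42, SE 0.24, adjusted p = 0.677). hsa_circ_0007522 (exons 25 to 28) stood the other way, with 66.6, 57.9 and 51.0 CPM with cadmium and 36.0, 29.0 and 36.1 CPM in controls (log2 fold change 0.76, SE 0.48, adjusted p = 0.705). hsa_circ_0090959 (exons 23 and 24) had 14.8, 57.9 and 25.5 CPM with cadmium and 54.0, 43.5 and 66.2 CPM in controls, which overlapped.

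The fourth KIF4A circRNA, novel_circ_0040270, was singled out after its values were seen. It has the acceptor of hsa_circ_0004278 but ends 2 exons earlier, at exon 13. It is listed at 0 reads in all 3 cadmium libraries and at 19, 4 and 13 reads in control replicates 1 to 3. Its level over the control group, 68.4 CPM, was 9.80 times a floor of 3 reads over the cadmium group (6.98 CPM). It is listed through the control libraries alone, so the listing fixed the direction. The 9.80 leaves out the counting error of the control reads. As a share of KIF4A reads it made up 0% of 45, 51 and 41 reads with cadmium, and 19.8% of 96, 7.02% of 57 and 14.6% of 89 reads in controls. Both circRNAs with the exon 11 acceptor together held 75.6%, 68.6% and 70.7% of KIF4A reads with cadmium, and 79.2%, 82.5% and 80.9% in controls. The circRNA did not pass the filter on low counts with all libraries and so was not part of the main test. With no filter and all libraries, edgeR gave it an adjusted p of 0.0595. Without cadmium replicate 1, 2 or 3 the circRNA passed the filter and was not called (adjusted p = 0.309, 0.327 and 0.147 with edgeR). Without control replicate 2, the control library with 4 reads, it passed the filter and was called by edgeR, where 0.184% of 7084 circRNAs were called. It entered all these fits only through its control reads, so nothing is read from them or from that call.

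**Figure D3:**
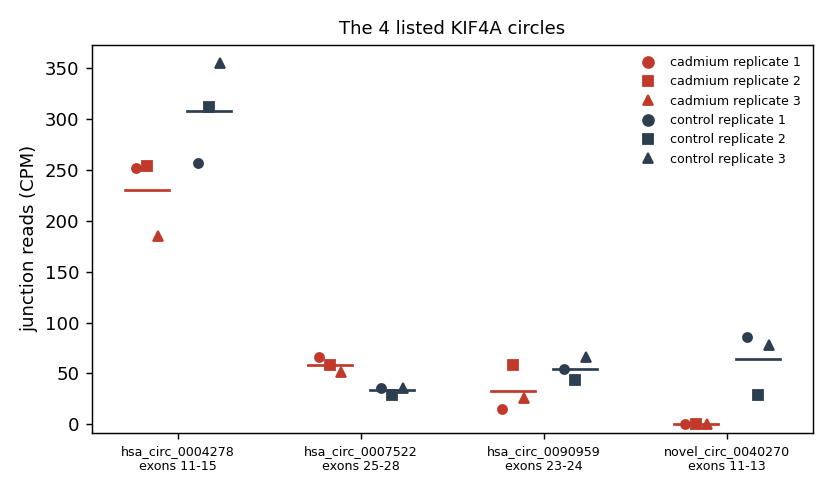
Junction reads in CPM (vertical axis) of the 4 listed KIF4A circRNAs, with 1 point per library (red for cadmium, dark blue for control) and a line at each group mean. hsa_circ_0004278 and novel_circ_0040270, which share an acceptor, are lower in every cadmium library, hsa_circ_0007522 is higher, and hsa_circ_0090959 overlaps.

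The other 4 kinesin circRNAs among the 6 most abundant motor circRNAs gave overlapping groups. hsa_circ_0003166 of KIF23 (exons 13 and 14) averaged 233 ± 22.3 CPM with cadmium and 234 ± 56.4 CPM in controls (SD, n = 3 each; log2 fold change 0.01, SE 0.25, adjusted p = 0.996). hsa_circ_0004266 of KIF23 averaged 202 ± 50.2 CPM with cadmium and 212 ± 46.3 CPM in controls (log2 fold change -0.07, SE 0.28, adjusted p = 0.971). Its longer partner with the same acceptor, novel_circ_0009211, had 59.2, 116 and 76.6 CPM with cadmium and 71.9, 29.0 and 30.1 CPM in controls (log2 fold change 0.86, SE 0.48, adjusted p = 0.669). For that partner 1 control library lay within the cadmium range and the other 2 below it, and its log2 fold change was 0.54 without cadmium replicate 2 and 1.47 without control replicate 1. hsa_circ_0002563 of KIF2C averaged 244 ± 35.4 CPM with cadmium and 189 ± 40.6 CPM in controls (log2 fold change 0.34, SE 0.26, adjusted p = 0.765). hsa_circ_0006084 of KIF15 averaged 185 ± 61.3 CPM with cadmium and 177 ± 61.9 CPM in controls, with a log2 fold change of 0.08 (SE 0.33, adjusted p = 0.971).

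The lowest log2 fold change of any tested member belonged to hsa_circ_0072593 of KIF2A, a depolymerising kinesin of spindle poles. It had 5, 0 and 6 reads with cadmium and 15, 13 and 10 reads in controls, or 37.0, 0 and 38.3 CPM against 67.4, 94.3 and 60.2 CPM. The groups did not overlap and 1 cadmium library held no read, with a log2 fold change of -1.49 (SE 0.64, adjusted p = 0.553). This circRNA is listed through the control libraries alone, which favours a lower level with cadmium, so its place at the end of the range is not read further. The sum over the 5 KIF2A circRNAs overlapped, at 167, 90.4 and 115 CPM with cadmium and 175, 176 and 157 CPM in controls. KIF14, a kinesin of cytokinesis, had 159.8, 173 and 179.6 CPM with cadmium, against 184, 249 and 263 CPM in controls. All cadmium libraries of KIF14 were below all control libraries, and the log2 fold change was -0.42 (SE 0.25, adjusted p = 0.530). Its most abundant circRNA, hsa_circ_0004522, had 74.0, 101 and 89.3 CPM with cadmium, against 103, 145 and 138 CPM in controls, also without overlap.

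The leading circRNAs of the other kinesins with 4 or more listed circRNAs gave overlapping groups. novel_circ_0001688 of KIF11 averaged 113 ± 21.3 CPM with cadmium and 90.2 ± 17.7 CPM in controls, and hsa_circ_0007356 of KIF24 119 ± 16.2 CPM with cadmium and 98.9 ± 33.5 CPM in controls. hsa_circ_0007496 of KIF18A, which damps chromosome movements at metaphase, averaged 73.6 ± 32.5 CPM with cadmium and 63.9 ± 33.8 CPM in controls. For hsa_circ_0075748 of KIF13A, a carrier of endosomal cargo, the means were 40.3 ± 17.2 CPM with cadmium and 32.4 ± 15.5 CPM in controls. For hsa_circ_0002002 of KIF1B, which carries mitochondria and synaptic vesicle precursors, they were 51.9 ± 36.6 CPM with cadmium and 64.5 ± 12.9 CPM in controls (SD, n = 3 each for all 5). Their log2 fold changes ran from -0.34 to 0.31, and their smallest adjusted p was 0.854. KIF3A, a subunit of the transport motor kinesin-II, had a single circRNA, novel_circ_0030408, which is listed at 0 in all cadmium libraries and at 8, 3 and 2 reads in control replicates 1 to 3. Its level over the control group was 3.54 times the floor of 3 reads over the cadmium group, with the counting error of the control reads left out. It is listed through the control libraries alone, which fixed the direction, and it was not tested.

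**Figure D4:**
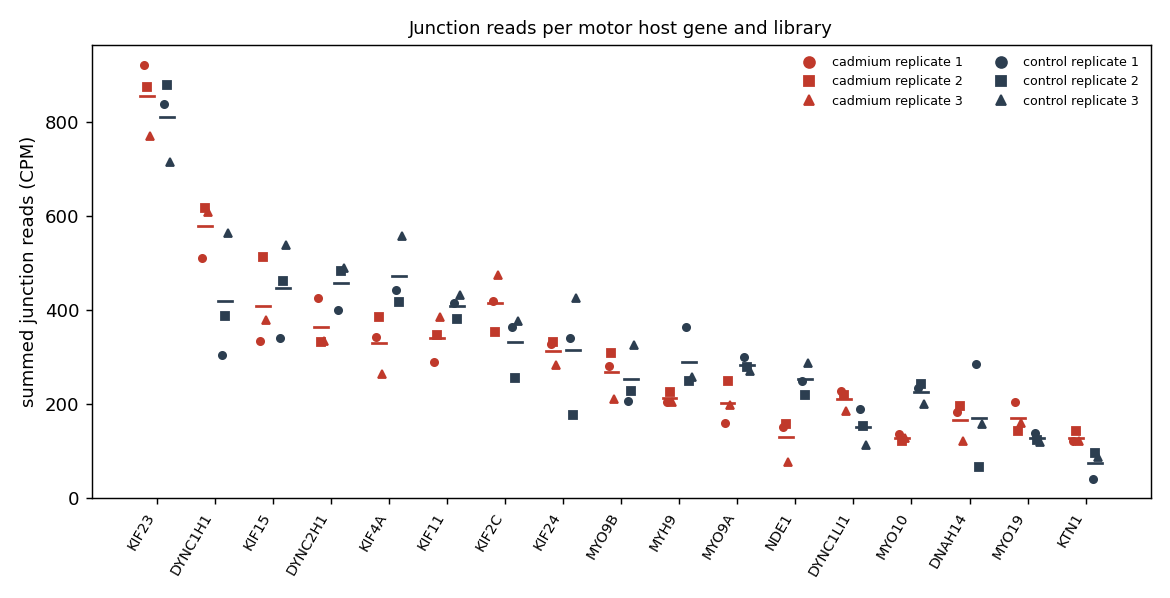
Summed junction reads in CPM (vertical axis) of the 17 motor hosts given in full, ordered by mean level, with 1 point per library (red for cadmium on the left, dark blue for control on the right) and a line at each group mean. The groups are apart for KIF4A, MYH9, MYO9A, NDE1, MYO10, MYO19 and KTN1 and overlap for the others.

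The dyneins included the gene with the second highest motor level. DYNC1H1, the heavy chain that carries the motor of cytoplasmic dynein, had 509.7, 618 and 609 CPM with cadmium, against 304, 388 and 564 CPM in controls. Control replicate 3 lay within the cadmium range and the other 2 control libraries below it. The log2 fold change was 0.48 (SE 0.22, adjusted p = 0.382), and it was 0.26 without control replicate 1 and 0.75 without control replicate 3. All 4 DYNC1H1 circRNAs had a higher mean with cadmium. They are not all independent, since hsa_circ_0002398 and hsa_circ_0007979 share a start, and novel_circ_0007019 is listed through the cadmium libraries alone. hsa_circ_0002398, the most abundant motor circRNA, had 45, 47 and 67 reads with cadmium and 45, 35 and 69 reads in controls, or 333, 340.4 and 427 CPM against 202, 254 and 415 CPM. These overlapped (log2 fold change 0.35, SE 0.26, adjusted p = 0.773). hsa_circ_0007979, which begins at the same exon 63, had 37.0, 86.9 and 57.4 CPM with cadmium and 31.5, 29.0 and 36.1 CPM in controls, just without overlap (log2 fold change 0.89, SE 0.51, adjusted p = 0.682). hsa_circ_0008683 (exons 42 and 43) had 111, 138 and 102 CPM with cadmium and 36.0, 102 and 72.2 CPM in controls, with the lowest cadmium library barely above the highest control library (log2 fold change 0.79, SE 0.41, adjusted p = 0.646).

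DYNC1LI1, a light intermediate chain that binds cargo adaptors, had 228, 219 and 186 CPM with cadmium, against 189, 154 and 113 CPM in controls. The lowest cadmium library lay just under the highest control library (log2 fold change 0.45, SE 0.28, adjusted p = 0.542). DYNC2H1, the heavy chain that returns cargo from the tips of cilia, had 426, 332 and 334 CPM with cadmium, against 401, 484 and 489 CPM in controls. Only cadmium replicate 1 reached into the control range (log2 fold change -0.33, SE 0.19, adjusted p = 0.519), and 7 of 8 circRNAs had a lower mean with cadmium. These share starts or ends and so are not independent, and novel_circ_0001940 is listed through the control libraries alone. For DYNC2H1 hsa_circ_0006921 there were 4, 6 and 4 reads with cadmium and 16, 6 and 17 reads in controls, or 29.6, 43.5 and 25.5 CPM against 71.9, 43.5 and 102 CPM. The groups met without crossing (log2 fold change -1.15, SE 0.50, adjusted p = 0.557). hsa_circ_0024143, with the same donor exon 82, had 118, 72.4 and 76.6 CPM with cadmium and 62.9, 123 and 90.2 CPM in controls (log2 fold change -0.02, SE 0.39, adjusted p = 0.996). The axonemal heavy chain gene DNAH14 had 183, 196 and 122 CPM with cadmium and 286, 65.9 and 157 CPM in controls (log2 fold change -0.10, SE 0.40, adjusted p = 0.936), with the control libraries on both sides of the cadmium ones. In control replicate 2 its main circRNA, hsa_circ_0016600, is listed at 0 reads where the other control libraries imply 10 or more. The same holds for hsa_circ_0000706 of DYNC1LI2, at 9, 36 and 0 reads with cadmium and 23, 13 and 13 reads in controls. These were the only 2 such zeros among motor circRNAs, of 94 in the table.

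MYO10 had the lowest log2 fold change among the tested unconventional myosins. MYO10, a motor of filopodia, has 1 listed circRNA, novel_circ_0031141, with 18, 16 and 20 reads with cadmium and 51, 33 and 32 reads in controls. That is 133, 116 and 128 CPM against 229, 239 and 193 CPM, and every cadmium library was below every control library. The log2 fold change was -0.81 (SE 0.26, adjusted p = 0.436 in the circRNA test of edgeR and 0.218 in the host test). MYO9A had 159.8, 249 and 199 CPM with cadmium, against 299.7, 278 and 269.6 CPM in controls. The groups did not overlap (log2 fold change -0.48, SE 0.23, adjusted p = 0.422), while its leading circRNA hsa_circ_0007266 averaged 102 ± 20.9 CPM with cadmium and 96.9 ± 33.9 CPM in controls (SD, n = 3 each). MYO9A also holds novel_circ_0009258, listed at 0 in all cadmium libraries and at 4, 4 and 3 reads in control replicates 1 to 3. Its control level was 3.00 times the floor of 3 reads over the cadmium group, and its listing through the controls alone fixed the direction. Also listed through the controls alone are hsa_circ_0036158, hsa_circ_0036174 and novel_circ_0009253 of MYO9A, and through the cadmium libraries alone hsa_circ_0036169. The separation of the MYO9A sums thus rests in part on the listing, and the sum without these circRNAs was not fitted. The related MYO9B had 281, 309 and 212 CPM with cadmium and 208, 227 and 326 CPM in controls, fully overlapping (log2 fold change 0.08, SE 0.25, adjusted p = 0.914). Its leading circRNA hsa_circ_0000910 averaged 32.3 ± 5.21 CPM with cadmium and 50.2 ± 21.6 CPM in controls. MYO19, a motor on mitochondria, had 205, 143 and 160.4 CPM with cadmium, against 138, 125 and 119 CPM in controls, with the groups just apart (log2 fold change 0.40, SE 0.29, adjusted p = 0.609). MYO5C, a vesicle motor of epithelia, has only novel_circ_0008784, at 0 in all cadmium libraries and at 6, 3 and 3 reads in control replicates 1 to 3. Its control level was 3.27 times the same floor, and it too is listed through the controls alone. In all, 4 of the 131 motor circRNAs were at 0 in all cadmium libraries and 0 of 131 in all control libraries. Over all listed circRNAs these counts were 212 and 93 of 9857. The difference was not tested, and such circRNAs are listed through the other group alone.

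The myosin heavy chain genes were those of non-muscle myosin II. MYH9, a heavy chain of stress fibres and the contractile ring, had 205, 226 and 205 CPM with cadmium, against 364, 249 and 257 CPM in controls. The cadmium libraries lay close together below the controls, of which replicate 1 was far above the other 2 (log2 fold change -0.47, SE 0.23, adjusted p = 0.442). Its hsa_circ_0004470 (exons 2 and 3) had 18, 20 and 17 reads with cadmium and 59, 26 and 24 reads in controls, or 133, 145 and 108 CPM against 265, 189 and 144 CPM. After scaling, 1 control library fell among the cadmium ones (log2 fold change -0.65, SE 0.30, adjusted p = 0.605). MYH10 averaged 113 ± 14.4 CPM with cadmium and 99.0 ± 3.30 CPM in controls (SD, n = 3 each).

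The adaptors and cofactors held both ends of the range of log2 fold changes among the 33 tested hosts. NDE1, which links dynein to LIS1 in mitosis and in brain development, had 152, 158 and 77.0 CPM with cadmium, against 249, 219.8 and 288 CPM in controls. Every cadmium library was below every control library (log2 fold change -0.99, SE 0.30, adjusted p = 0.204), and all 4 of its circRNAs had a lower mean with cadmium. These pair up by a shared start or end, so they are not independent. Moreover, hsa_circ_0038063 and novel_circ_0009962 are listed through the control libraries alone, which favours a lower cadmium mean. Most of the difference in the NDE1 sum came from hsa_circ_0038054 (exons 3 and 4). That circRNA had 8, 16 and 5 reads with cadmium and 34, 22 and 25 reads in controls, or 59.2, 116 and 31.9 CPM against 153, 159.6 and 150.4 CPM. The control libraries of this circRNA were nearly equal and the cadmium ones spread below them (log2 fold change -1.17, SE 0.40, adjusted p = 0.436). The log2 fold change was -1.79 without cadmium replicate 2 and -0.82 without cadmium replicate 3. PAFAH1B1, which encodes LIS1, averaged 158 ± 47.9 CPM with cadmium and 186 ± 30.3 CPM in controls (SD, n = 3 each), and its leading circRNA novel_circ_0011486 had 4, 8 and 0 reads with cadmium and 16, 5 and 8 reads in controls. KTN1, the kinesin-binding protein kinectin of the endoplasmic reticulum, has 1 listed circRNA, hsa_circ_0032029 (exons 2 to 5). It had 16, 19 and 19 reads with cadmium and 9, 13 and 14 reads in controls, or 118, 138 and 121 CPM against 40.5, 94.3 and 84.2 CPM. The groups did not overlap, with control replicate 1 farthest below (log2 fold change 0.83, SE 0.38, adjusted p = 0.600 in the circRNA test and 0.384 in the host test). Without control replicate 1 the log2 fold change of this circRNA was 0.49.

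**Figure D5:**
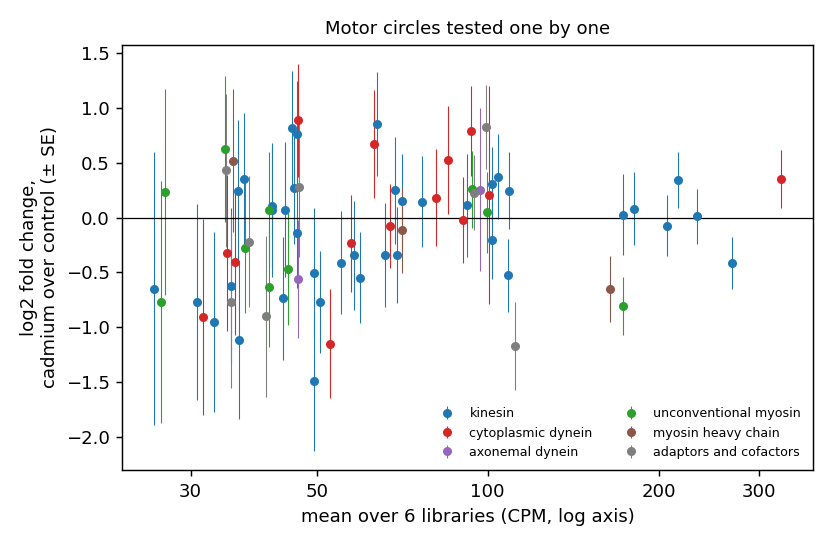
Log2 fold change, cadmium over control (vertical axis, bars ± 1 SE of edgeR), of the 76 tested motor circRNAs against their mean level over 6 libraries (horizontal log axis, CPM), coloured by family. Estimates run from -1.49 to 0.89 with 38 on each side of 0, and the widest bars belong to low levels.

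Whether the circRNAs of 1 host shifted against each other was asked for the 20 motor hosts with 2 or more tested circRNAs. The usage test of edgeR called 0 of them, against 0.0742% of 1347 hosts, and 0 reached an unadjusted p under 0.05 (background 2.0%). KIF4A had the smallest p of these 20, with an adjusted p of 0.999 in edgeR. Without control replicate 2, which lets novel_circ_0040270 pass the filter through its control reads, KIF4A was called in this test, where 0.265% of 1512 hosts were called, and nothing is read from that call either.

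Control replicates 1 and 3 stood apart in a measure that adds other reads to the junction counts, the share of reads at the locus that cross the junction. Each junction read counts 2 times in it and each read that does not cross 1 time, and the sources used here leave unsaid how the other reads were counted. Over 84 motor circRNAs with reads in every library it was 28.6%, 27.3% and 24.5% in cadmium replicates 1 to 3, and 41.5%, 22.0% and 47.8% in control replicates 1 to 3. Its part in the results was not tested beyond a fit without these 2 libraries, in which the lone control library was assumed to vary like the cadmium ones. In that fit NDE1 had a log2 fold change of -0.80, MYO10 of -0.93, KIF4A of -0.37, DYNC1H1 of 0.55 and KTN1 of 0.41, so each kept its sign, and KTN1 differed most from its value with all libraries.

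Among other genes of the pathway, in lists chosen with earlier results known, 0 hosts were called. Of 42 further motor adaptors and accessory subunits, 19 are listed as hosts and 17 were tested. PLEKHM2, which couples lysosomes to kinesin, had 319.5, 429.6 and 481 CPM with cadmium and 263, 249 and 194 CPM in controls, without overlap (log2 fold change 0.80, SE 0.22, adjusted p = 0.204 with edgeR), and was the only one with an unadjusted p under 0.05. Of 27 microtubule-associated proteins, 16 are listed and 15 were tested, with 1 higher and 1 lower at that level. These were CKAP5, a microtubule polymerase, with 517, 489.9 and 449 CPM with cadmium and 364, 344 and 301 CPM in controls, and CAMSAP2, which holds minus ends, with 129, 136 and 77.0 CPM with cadmium and 212, 176 and 182 CPM in controls. Of 33 actin and myosin regulators, 20 are listed and 17 were tested, with 1 higher and 2 lower at that level. DIAPH3, a formin that builds actin filaments, had 936, 1259 and 1449.8 CPM with cadmium and 858, 791 and 903 CPM in controls. PPP1R12A, the myosin phosphatase subunit, had 68.5, 45.2 and 57.7 CPM with cadmium and 161, 183 and 113 CPM in controls, and CDC42BPA, a kinase that acts on myosin, had 449, 294 and 257 CPM with cadmium and 457, 484 and 596 CPM in controls. Over the 3 lists, an unadjusted p under 0.05 was reached by 3 of 49 tested hosts in each direction, or 6.12%, near the 5.88% (higher) and 6.58% (lower) of all hosts. The medians of the log2 fold changes in the 3 lists were -0.10, 0.05 and 0.004, against 0.001 over all hosts.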

How the data were processed

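Junction counts of 3 cadmium and 3 control libraries were analysed, grouped by the treatment in the labels. The authors' deposited counts are whole back-splice junction reads per circRNA and hold no value of 1. The deposited TPM values equal the count over the library total, with no length term, and served in 1 alternative. The authors' annotation table gives positions, classes, hosts, read totals of each locus and other descriptive entries. The submitters' processing notes name DESeq 1.10.1, Bowtie and Bowtie2 2.2.8 without saying what each did. A caller of circRNAs was not given in the sources used here. Also named is hg19, but exon bounds of GENCODE 29 (GRCh38) coincide with the deposited positions, so GRCh38 is the build given, counted from 1.

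The quasi-likelihood test of edgeR 4.0.16 (R 4.3.3) was fitted to all circRNAs, and to reads summed per single host gene, with robust fitting and TMM factors. filterByExpr kept features by a minimum count of 5 and a minimum total of 15, and p-values were adjusted (Benjamini-Hochberg) over everything tested. Usage within a host was tested with diffSpliceDGE and Simes p-values. The SE was taken as the size of the log2 fold change divided by the root of F. Alternatives were DESeq2 1.42.0, limma 3.58.1 on log2(TPM + 1), other scalings and filters, the replicate number as a block, and leaving out each library. The fits were tried on simulated data first, with a single fixed spread between libraries for all features, and no result here rests on that trial.

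The members, lists and tests were chosen with earlier results of these data known. Hosts given in full were the 8 with the highest mean, the 5 higher and the 5 lower with the smallest p, and the top host of each family. The circRNAs given in full were the 6 with the highest mean, the 5 higher and 5 lower with the smallest p, and the top one of each host with 4 or more. Other names were chosen after their values were seen. A zero was marked where the lower share of the other 2 libraries of the group implied 10 or more reads. That form was settled after a first one, with the mean of the 2, had been counted (172 circRNAs in place of 94, and 2 motor circRNAs under both). Host library sizes were the reads summed over hosts, chosen after the whole table's reads had also been tried. KIF24 hsa_circ_0007356 has 2 annotation entries with the same reads and was counted once. Within a group, chi-square per degree of freedom between libraries was 1.59 to 2.49, above counting noise, and each was kept as a replicate.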

Additional observations from a re-analysis of the deposited data

How the results depend on the processing

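The count of called motor circRNAs, hosts and usage shifts was 0 under every setting run except without control replicate 2, where 1 circRNA (novel_circ_0040270 of KIF4A) and 1 usage shift (KIF4A) were called. Leaving out each library in turn thus gave 0 to 1 called circRNAs, 0 called hosts and 0 to 1 usage calls. That circRNA enters the test only through its control reads, so these calls support nothing. DESeq2 gave no adjusted p for the motor hosts and for 27 values of named hosts and circRNAs, which are not counted here. Of 575 other values of the 42 named hosts and circRNAs under other settings, 545 kept their direction and their side of the threshold, and 30 values of 12 names, all with a log2 fold change smaller than its SE with all libraries, changed sign. Outside leaving out libraries these were KIF24 (0.0145 with the replicate block, 0.0971 with limma), DNAH14 (0.0238 with the replicate block, 0.196 with limma) and hsa_circ_0003166 (-0.0187 with no filter), and the cause was not tested. Without 1 library, log2 fold changes ran from -0.016 to 0.147 for KIF23, -0.315 to 0.0351 for KIF15, -0.283 to 0.221 for KIF24, -0.442 to 0.536 for DNAH14 and -0.0766 to 0.289 for MYO9B. They ran from -0.137 to 0.169 for hsa_circ_0003166, -0.288 to 0.0834 for hsa_circ_0004266, -0.172 to 0.360 for hsa_circ_0006084 and -0.304 to 0.192 for hsa_circ_0024143. For hsa_circ_0075748 they ran from -0.152 to 0.478, for hsa_circ_0007496 from -0.0348 to 0.645 and for hsa_circ_0007266 from -0.219 to 0.184. Leaving out 1 library moved the log2 fold change of 33 of the 42 names by over 1.5 times or turned its sign, and the 9 others were DYNC2H1, KIF4A, NDE1, MYO10, MYO9A, hsa_circ_0004278, hsa_circ_0007522, novel_circ_0031141 and hsa_circ_0006921.

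In the labels, same-numbered libraries of the 2 groups share only a number. Their deviations from the group means correlated at 0.0002, 0.0216 and 0.0517. With so few reads per circRNA, these correlations cannot decide whether such libraries were handled together. With the replicate block the counts of called motor circRNAs, hosts and usage shifts were 0, 0 and 0. The difference in the motor share of junction reads, cadmium minus control, was -0.0339 percentage points, within the pooled SD of 0.0352, and ran from -0.0534 to -0.00887 without 1 library. With the whole table's reads as library sizes, chosen after seeing the data, 0 motor hosts were called and 5 of 3008 hosts in place of 7. Leaving out control replicates 1 and 3, also chosen after seeing the data, assumes that the lone control library varies like the cadmium libraries and called 0 members. With a median of 6 reads per motor circRNA and library, single circRNAs were counted with low precision.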
